A study of Mus musculus with 4 samples.

Results

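The comparison described here sets the lens transcriptome of CRYAAWT mice at 4 months of age against that of CRYAAWT mice at 2 months. CRYAAWT mice are C57BL/6 mice that carry a transgene for unmodified alpha A crystallin, and they are called WT here. The same series holds lenses of CRYAAN101D mice, whose transgene encodes alpha A crystallin with the N101D change that stands for deamidation, also at 4 months and at 2 months, and their values are given beside those of WT for many of the genes named. All 4 groups carry a transgene, the sources used here do not name the promoter driving it, and each group is 1 RNA sequencing library with no statement of how many lenses or animals it pools. Values are FPKM, the fragments assigned to a locus scaled to its length and to the mapped fragments of the library. Genes were taken by symbol where the locus was not marked FAIL at either age, with the locus of highest mean FPKM standing for the symbol, and kept at 1 FPKM or more in at least 1 WT library. This gave 11166 genes of the 21528 symbols listed. Of these, 10477 reached 1 FPKM at both ages, 342 at 4 months only and 347 at 2 months only. The nearest genes below that limit were Car4 (0.9998 FPKM at 4 months) and C230091D08Rik (0.999 FPKM at 2 months), and the nearest above it were the joint entry Cdh29,Uba7 (1.0002 FPKM at 4 months) and Cldn5 (1.0007 FPKM at 2 months).

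The lens grows throughout life from a single layer of epithelial cells at its front. Cells at the equator leave the cell cycle, elongate into fibers, fill with crystallins and then lose their nuclei and organelles, after which they make no further transcripts. New transcripts of the lens itself therefore come from the epithelium and the younger outer fibers. In rodents the gamma crystallins of the A to F group are known as genes of fetal and early postnatal fibers, while beta B2 and gamma S crystallin are known to be made in later fibers as well.

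The WT library of 4 months held about 35 M fragments and that of 2 months about 49.9 M, as recovered from the steps between low FPKM values. At 1 FPKM, 1 kb of effective length then rests on about 35 fragments at 4 months (95% Poisson interval 24.4 to 48.7) and 49.9 at 2 months (37.0 to 65.8), intervals that cover counting error only. Both libraries list Y-linked transcripts, among them Ddx3y at 9.84 FPKM at 4 months and 10.03 FPKM at 2 months. Lens identity was clear from the crystallins, which took 60.1% of the FPKM of named genes at 4 months and 71.7% at 2 months, counted without the third set of loci described next. Within each chromosome the tables run through plus-strand loci and minus-strand loci, and the third set that follows them can carry extreme values. The third set stands for 322 of the 11166 genes, 294 of which also have a stranded locus. With 1 library per age no difference below has a replicate check, no p-value can be given, and differences between animals, dissections or library preparations cannot be told apart from age. The N101D library of 2 months lists Ddx3y at 0.303 FPKM and was low in markers of several tissues other than lens. Its macrophage and leukocyte markers summed to 1.12 FPKM, against 13.97 FPKM in N101D at 4 months. Every N101D difference given here rests on that library, and its part in them was not tested.

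Most genes differed little between the ages. On the scale used throughout, log2(FPKM + 1) at 4 months minus the same at 2 months, the median over all genes was -0.01, the quartiles were -0.17 and 0.18, and 89.4% of the genes lay within 0.5 of 0. For genes of low FPKM this scale makes a change look smaller than it is. Taking a difference of 1 as 2-fold, 89 genes (0.797%) were at least 2-fold higher at 4 months and 68 (0.609%) at least 2-fold lower, or 1.41% in either direction. Close to these limits lay Tbc1d1 (1.01) on the higher side and Adnp (-1.01) and Igf2bp2 (-0.999) on the lower. Loci of the third set gave 14 of the 89 and 17 of the 68. Without that set 77 genes were higher and 53 lower. When both libraries were brought to equal totals, the median of all genes moved to 0.28 or, with the crystallins kept out of the total, to 0.32, and the split became 320 higher and 29 lower or 390 and 28. The totals themselves are carried in large part by the third set, which summed to 737771 FPKM at 4 months and 1035670 at 2 months. With the crystallins and the third set both kept out of the total, a scaling called stranded totals below, the split was 96 and 61 and the median of all genes 0.01. Stranded totals changed the sign of 1 of the 46 list medians, that of the antioxidant list (-0.01, against 0.01 with them). Equal totals changed the sign of 23 of the 46, and of 24 with the crystallins kept out of the total. Quantile normalization changed 5, among them oxidative phosphorylation (to -0.10), proteasome (to -0.02) and ubiquitin (to -0.02). With a pseudocount of 10 the split was 19 and 33. In N101D the median over the same genes was 0.14, with quartiles of -0.12 and 0.42, so N101D list medians below stand against 0.14.

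**Figure D1:**
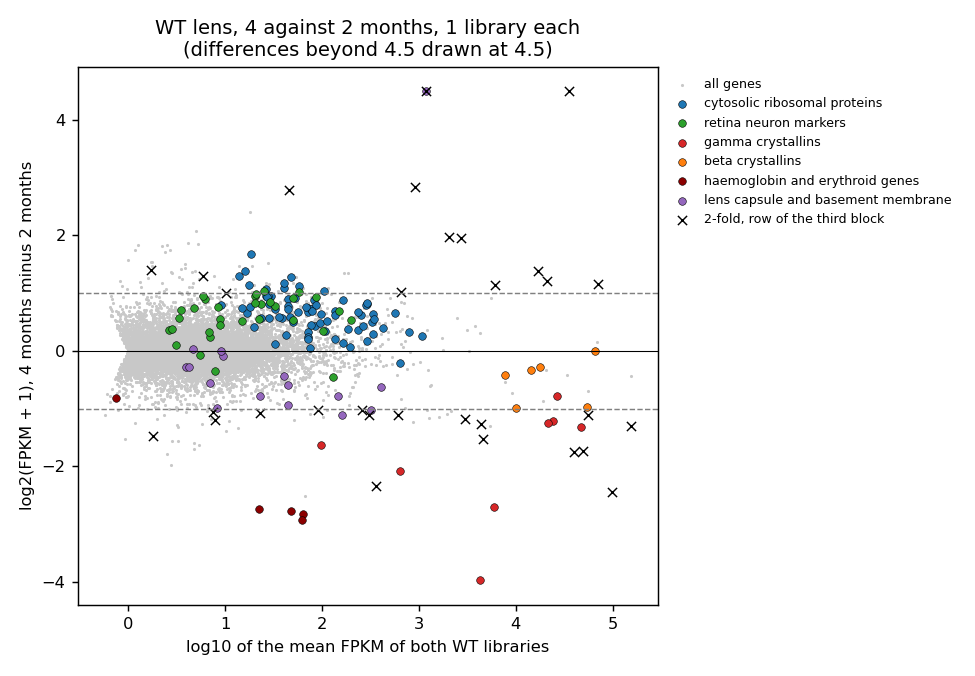
Difference of each of the 11166 genes (WT at 4 months minus WT at 2 months, log2(FPKM + 1)) against the log10 of its mean FPKM, with gene lists coloured and 2-fold differences that rest on the third set of loci crossed. Ribosomal protein genes sit above 0 with 1 exception, the 8 gamma crystallins and the haemoglobin genes lie below 0, and the dashed lines mark 2-fold.

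Every crystallin gene was listed lower at 4 months than at 2 months, and the largest differences fell on 3 gamma crystallins, Crygf, Cryge and Cryga. The 16 genes together summed to 277005 FPKM at 4 months and 473906 at 2 months, a log2 ratio of -0.77. The named genes other than crystallins, again without the third set, summed to 183745 FPKM at 4 months and 186787 at 2 months. The log2 ratio of the crystallin sums stayed negative under every scaling tried, at -0.42 and -0.37 with the 2 equal totals, -0.75 with stranded totals and -0.32 with quantile normalization.

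Gamma crystallins are compact monomeric proteins packed at high density in the lens core. Of their 8 genes, 7 were at least 2-fold lower at 4 months against a background of 0.609% of all genes, and the median difference was -1.47. Crygf (chromosome 1, 65972995 to 65974878 on mm9) stood at 513 FPKM at 4 months and 8052 at 2 months, a difference of -3.97. Cryge (chromosome 1, 65095130 to 65097737) stood at 1571 FPKM at 4 months and 10250 at 2 months (-2.71). Cryga (chromosome 1, 65146962 to 65150454) stood at 242 FPKM at 4 months and 1026 at 2 months (-2.08). These were the 3 gamma crystallins with the largest differences. Cryge and Crygf are near-identical in sequence, so the division of fragments between them is uncertain, and together with Cryga they made up a small part of the gamma total.

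The abundant members of the same cluster differed by less. Crygb (chromosome 1, 65126800 to 65128898) was listed at 27278 FPKM at 4 months and 67691 at 2 months (-1.31). Crygc stood at 14534 FPKM at 4 months and 33612 at 2 months (-1.21). Crygd stood at 12807 FPKM at 4 months and 30332 at 2 months (-1.24). Along chromosome 1 the order on mm9 is Cryge, Crygd, Crygc, Crygb, Cryga, so the 2 outer genes of the cluster had the larger differences and the 3 inner genes the smaller, with Crygf lying apart. Outside the group, Crygn (chromosome 5), at the low level of 47.6 FPKM at 4 months and 149 at 2 months, differed by -1.63. Crygs (chromosome 16), which encodes gamma S crystallin, stood at 19526 FPKM at 4 months and 33635 at 2 months (-0.78) and was the gamma gene that did not reach 2-fold. In N101D lenses all 8 gamma genes were at least 2-fold lower at 4 months, from -1.54 for Crygs to -5.16 for Cryga.

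The 100 bases before the annotated start of the 6 A to F genes are shown because these genes moved together to different extents. They come from RefSeq on GRCm38.p6, run 5′ to 3′ in the direction of transcription, and lie on chromosome 1 in every case. Capitals mark the letters TATATA (extended where the run repeats) and TTTGTG, 2 runs of 6 letters that all 6 hold.
Crygf: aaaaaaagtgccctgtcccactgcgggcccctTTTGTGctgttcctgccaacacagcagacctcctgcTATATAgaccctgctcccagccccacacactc
Cryge: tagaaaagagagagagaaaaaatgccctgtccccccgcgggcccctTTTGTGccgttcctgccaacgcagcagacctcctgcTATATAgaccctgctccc
Cryga: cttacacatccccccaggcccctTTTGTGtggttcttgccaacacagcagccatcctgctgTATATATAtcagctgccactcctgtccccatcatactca
Crygb: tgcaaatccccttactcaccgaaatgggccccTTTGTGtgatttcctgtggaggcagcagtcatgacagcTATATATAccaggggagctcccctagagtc
Crygd: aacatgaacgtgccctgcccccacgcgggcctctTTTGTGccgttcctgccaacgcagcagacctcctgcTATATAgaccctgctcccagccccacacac
Crygc: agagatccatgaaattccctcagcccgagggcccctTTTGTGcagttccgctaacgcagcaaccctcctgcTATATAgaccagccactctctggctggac
TTTGTG was picked as a run that these 6 sequences share, so its presence in all 6 is how it was chosen and tests nothing. TATATA was entered as a TATA element, and its presence in all 6 was not tested either. Searched on both strands, TATATA occurred in 2.19% of 32851 promoter windows of the same length and TTTGTG (or CACAAA) in 6.03%. Crygd, Cryge and Crygf also share a run of 33 letters across the TATATA element, which 3 of the 32851 windows hold, all 3 of them gamma windows. That run was picked from these 3 genes, so this count tests nothing. In WT the 3 genes differed by -1.24, -2.71 and -3.97.

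Beta crystallins, oligomeric relatives of the gamma family, were also listed lower in 6 of 6 genes, with a median of -0.37. None was 2-fold lower (0.609% over all genes). The median was only -0.01 and 0.04 with the equal totals, and -0.35 with stranded totals. Cryba1, the gene of beta A3/A1 crystallin, stood at 37223 FPKM at 4 months and 72740 at 2 months (-0.97). Crybb3 (beta B3) stood at 6689 FPKM at 4 months and 13217 at 2 months (-0.98). These 2 were close to 2-fold lower and kept a negative difference under every scaling. Crybb2 (beta B2; chromosome 5, 113487273 to 113499575) stood at 65848 FPKM at 4 months and 66205 at 2 months (-0.01), and was positive with equal totals (0.35 and 0.40) and quantile normalization (0.44). Crybb1 (-0.41), Cryba4 (-0.33) and Cryba2 (-0.28) lay between, and Cryba4 and Cryba2 turned positive with equal totals. Crybb2 was thus the most abundant crystallin at 4 months, while Cryba1, Cryaa, Crygb and Crybb2 were all listed between 66205 and 72740 FPKM at 2 months.

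The alpha crystallins are small heat shock proteins that hold partly unfolded lens proteins in solution. Cryaa, the mouse gene of the protein that the transgene encodes, stood at 41937 FPKM at 4 months and 68167 at 2 months (-0.70, but 0.00 with quantile normalization). The sources used here do not say whether transgene fragments count toward it. Cryab, its partner, stood at 13347 FPKM at 4 months and 24459 at 2 months (-0.87). Hspb1, another small heat shock protein of the lens, went the other way, with 667 FPKM at 4 months and 352 at 2 months (0.92). As shares of all crystallin FPKM, gamma crystallins took 27.6% at 4 months and 39.0% at 2 months, beta crystallins 52.4% at 4 months and 41.5% at 2 months, and alpha crystallins 19.96% at 4 months and 19.5% at 2 months. These shares are the same under any scaling that multiplies a library by 1 factor, though not under quantile normalization. In N101D lenses the gamma share was 23.4% at 4 months and 41.4% at 2 months.

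**Figure D2:**
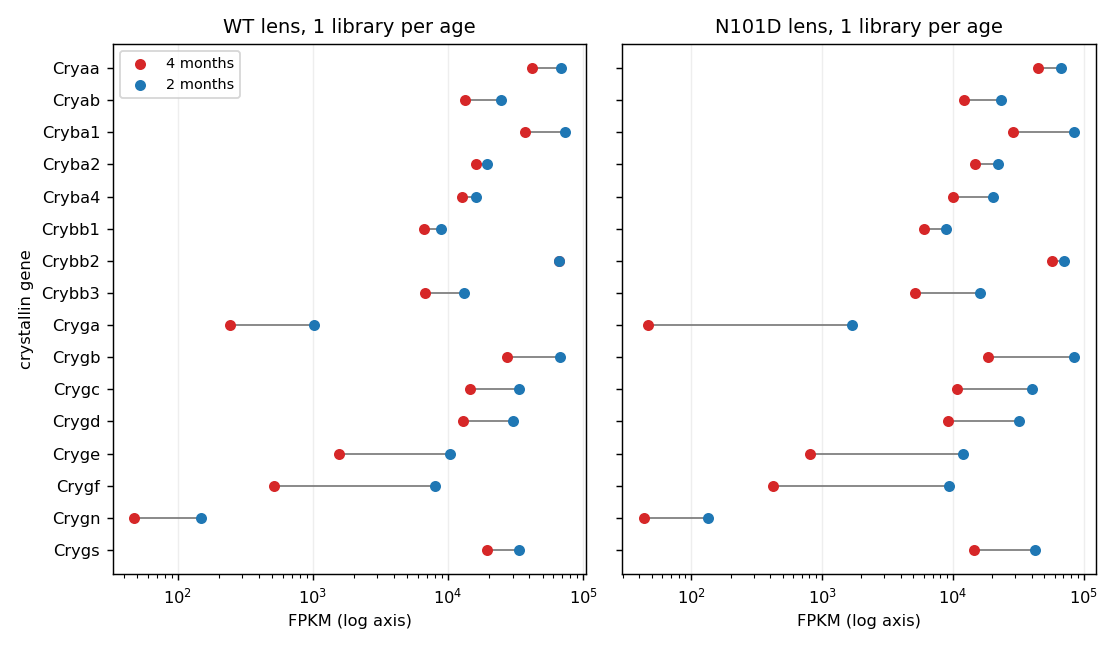
FPKM (log axis) of the 16 crystallin genes at 4 months (red) and 2 months (blue) in WT lenses, left, and N101D lenses, right, with 1 library per point. Red points lie left of blue for every gene, widest for Crygf, Cryge and Cryga, and coincide for Crybb2 in WT.

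Genes of the lens capsule, the basement membrane that the epithelium and fibers secrete around the lens, were lower at 4 months. Of 16 measured genes 14 were negative, with a median of -0.57 (-0.24 and -0.19 with equal totals), against 51.5% negative and a median of -0.01 over all genes. Col4a1 and Col4a2 encode the common chains of type IV collagen and share the listed span of chromosome 8, 11198422 to 11449393. Col4a1 stood at 213 FPKM at 4 months and 433 at 2 months (-1.02). Col4a2 stood at 103 FPKM at 4 months and 222 at 2 months (-1.11). The other chains followed, with Col4a5 at -0.94, Col4a6 at -0.78 and Col4a4 at -0.59. For Col4a3 the locus of highest mean is of the third set, at 2350 FPKM at 4 months and 0 at 2 months, while its stranded locus stood at 36.0 FPKM at 4 months and 54.9 at 2 months (-0.59). With the third set left out, 15 of 16 capsule genes were negative and the median was -0.59.

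Other capsule genes were lower to differing extents. The laminin chain Lamb1 stood at 5.21 FPKM at 4 months and 11.4 at 2 months (-0.99). Nid1, the linker nidogen, stood at 108 FPKM at 4 months and 186 at 2 months (-0.78), and Sparc, a collagen-binding glycoprotein, differed by -0.62. Lamb2 (9.16 FPKM at 4 months and 9.19 at 2 months) and Nid2 (4.69 FPKM at 4 months and 4.57 at 2 months) were nearly level. In N101D lenses the 5 collagen IV chains other than Col4a3 differed by -1.19 (Col4a1) to -0.43 (Col4a6), whereas Lamb2, Nid2, Agrn and Lama5 were listed 0.88 to 1.39 higher at 4 months.

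Among genes of fiber membranes and cytoskeleton the differences were mixed in size, with 18 of 23 negative and a median of -0.20, which turned to 0.16 and 0.21 with equal totals and was -0.17 with stranded totals and -0.27 with quantile normalization. In N101D the median was -0.23. Gja3, which encodes a connexin of fiber gap junctions, was level at 208 FPKM at 4 months and 210 at 2 months. Birc7, a lens fiber gene of the inhibitor of apoptosis family, differed by -0.72 and Grifin, a lens galectin relative, by -0.58. Bfsp1, which encodes the beaded filament protein filensin, was listed higher, at 2957 FPKM at 4 months and 1995 at 2 months (0.57). Aqp5, a water channel, differed by 0.51. Lim2, an abundant fiber membrane protein (3293 FPKM at 4 months and 3308 at 2 months), and Vim, the intermediate filament vimentin (800 FPKM at 4 months and 806 at 2 months), both differed by -0.01.

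Epithelial and regulatory genes were slightly lower at 4 months. Without the third set, 17 of 19 lens epithelium genes were negative with a median of -0.28, and with it the median was -0.19, or 0.11 and 0.16 with equal totals and -0.17 with stranded totals. Igfbp5, an insulin-like growth factor binding protein, stood at 19.9 FPKM at 4 months and 35.2 at 2 months (-0.80). Npnt, the integrin ligand nephronectin, differed by -0.73, Gja1 (connexin 43 of the epithelium) by -0.60 and the eye regulator Pax6 by -0.52. In N101D, Npnt differed by -1.09, but Igfbp5 by 1.69, Gja1 by 0.65 and Pax6 by 0.73. Foxe3, the forkhead factor that defines the epithelium, stood at 19.8 FPKM at 4 months and 22.7 at 2 months (-0.19). Lens transcription factors had a median of -0.18 with none of 20 at 2-fold (1.41% over all genes). For Na,K-ATPase and ion transport genes it was -0.21, with Atp1b1, the beta 1 subunit of the sodium pump, at -0.66. Cell cycle genes (median -0.12 over 21) included Mcm2 at -0.59, Ccnd2 at -0.57 and the inhibitor Cdkn2b at 0.68. All 3 of these medians turned positive with equal totals but stayed negative with stranded totals, at -0.16 for the transcription factors, -0.19 for ion transport and -0.10 for the cell cycle. In N101D they were 0.02, 0.23 and -0.13, against 0.14 over all genes.

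Cytosolic ribosomal protein genes were higher at 4 months almost without exception. Of 75 measured genes 74 were positive, against 48.5% of all genes, and 10 were at least 2-fold higher, against 0.797% of all genes. Their median was 0.66 and stayed between 0.58 and 1.07 under the scalings tried. Summed over the list they held 12454 FPKM at 4 months and 8970 at 2 months. The exception was Rpl41, at 596 FPKM at 4 months and 690 at 2 months (-0.21).

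The largest differences fell on small-subunit and large-subunit genes alike. Rps29 (chromosome 12, 70258708 to 70260173) stood at 28.6 FPKM at 4 months and 8.25 at 2 months (1.68). Rps27 stood at 23.5 FPKM at 4 months and 8.40 at 2 months (1.38). Rpl12 (1.31), Rpl9 (1.28) and Rps12 (1.17) followed, and the joint entry Rpl34,Rpl34-ps1 differed by 1.53. The most abundant members differed less, with Rps3 at 1179 FPKM at 4 months and 988 at 2 months (0.25) and Rplp1 at 876 FPKM at 4 months and 696 at 2 months (0.33). Ribosomal protein genes have many processed pseudogenes, so fragments may be shared between copies, and single values are uncertain.

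In N101D lenses the same genes did not move together: 33 of 75 were positive and their median was -0.07, against 0.14 over all genes. Their sum was 9879 FPKM at 4 months and 10599 at 2 months there, so among the 4 libraries WT at 4 months was the highest and WT at 2 months the lowest. The WT difference also varied with transcript length, taken as the longest GENCODE M21 transcript for 9778 genes (87.6%). It had a median of 0.13 over 441 genes of up to 1000 bases and of -0.11 over 2377 genes of more than 5000 bases. Without the ribosomal protein genes the shortest class had a median of 0.10. In N101D the median was -0.05 in the shortest class and 0.16 in the longest. Of the ribosomal protein genes with a length, 62 of 74 have transcripts of up to 2000 bases, and the part of length in their difference was not tested beyond these values.

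Other genes of the translation machinery were higher to a smaller extent. Translation factors had a median of 0.27 with 23 of 30 positive. Eef1d, a subunit of the elongation factor exchange complex, stood at 87.0 FPKM at 4 months and 40.5 at 2 months (1.08). Eef1b2 (0.85) and the initiation factor genes Eif3f (0.83) and Eif3h (0.79) were next, and all 4 were also higher in N101D, by 0.58 to 1.15. Mitochondrial ribosomal proteins had a median of 0.15 (39 of 56 positive). Among long noncoding RNAs, which include host transcripts of small nucleolar RNAs, 7 of 9 were positive. Snhg12 stood at 242 FPKM at 4 months and 94.5 at 2 months (1.35) and Gas5 at 590 FPKM at 4 months and 355 at 2 months (0.73). In N101D, Snhg12 differed by 1.02 and Gas5 by -0.38.

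**Figure D3:**
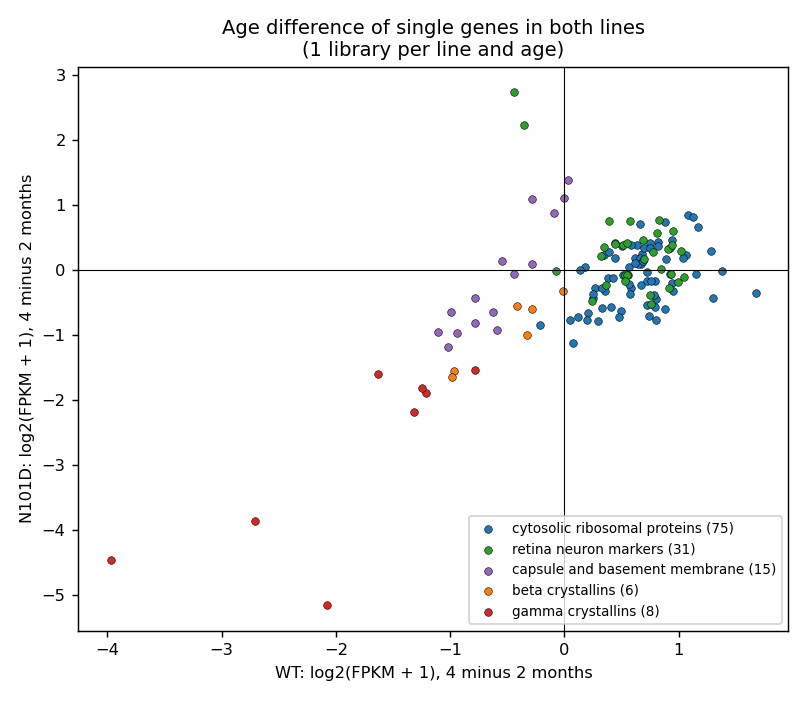
Difference between 4 and 2 months (log2(FPKM + 1)) of single genes in WT lenses, horizontal axis, and N101D lenses, vertical axis, for 5 lists without loci of the third set. Gamma and beta crystallins lie lower left, whereas ribosomal protein genes lie right of 0 in WT with 1 exception and on both sides of 0 in N101D.

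Markers of other tissues were present in both WT libraries and differed between them. The defining rod genes were well above 0: Gnat1, the alpha subunit of rod transducin, stood at 185 FPKM at 4 months and 114 at 2 months (0.69). Of 32 retina neuron markers 29 were positive, with a median of 0.63 and a summed level of 1332 FPKM at 4 months and 908 at 2 months. Gngt1, the gamma subunit of rod transducin, stood at 34.4 FPKM at 4 months and 16.1 at 2 months (1.05). Pde6g, a subunit of the rod phosphodiesterase, stood at 78.6 FPKM at 4 months and 38.3 at 2 months (1.02). Guca1a, Arr3 and Rcvrn, further photoreceptor genes, differed by 0.95 to 0.99. Of the 3 negative members, Glul differed by -0.44 and the cone pigment gene Opn1sw by -0.07. In N101D the list had a median of 0.29, against 0.14 over all genes.

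Pigmented tissue markers went both ways, with 7 of 16 measured genes positive, or 5 of 16 without the third set. They are grouped by function here, a division made after the values were seen, and not every member is named. Of visual cycle and pigment epithelium genes, Rpe65, the retinoid isomerase (chromosome 3, 159262076 to 159305297), was higher. It stood at 21.2 FPKM at 4 months and 6.96 at 2 months (1.48). Ttr, the retinol carrier transthyretin (1.09), Rgr (1.04), Rlbp1 (0.71) and Lrat (0.70) went with it. Of melanin and melanosome genes, Pmel was lower, at 24.7 FPKM at 4 months and 47.6 at 2 months (-0.92). Dct (-0.70), Trpm1 (-0.57) and Tyrp1 (-0.56) were lower as well. Mitf, a regulator of pigment cells, differed by 0.99 on a locus of the third set and by -0.01 on its stranded locus. The list as a whole had a median of -0.31, turning to 0.03 and 0.08 with equal totals and -0.29 with stranded totals, and summed to 516 FPKM at 4 months and 581 at 2 months. The N101D library of 2 months was low in these markers, at 81.1 FPKM in sum, so its side of the comparison gives no parallel for them. That library also lists the Y-linked genes near 0, with Ddx3y at 0.303 FPKM.

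Haemoglobin transcripts were the other group with a large difference. Hba-a1 (chromosome 11, 32196488 to 32197310) stood at 14.9 FPKM at 4 months and 112 at 2 months (-2.83). The beta globin entry Beta-s stood at 13.7 FPKM at 4 months and 111 at 2 months (-2.93). Hba-a2 (-2.77) and Hbb-b1 (-2.74) differed alike, and fragments may be shared between these close paralogs. The 5 measured blood genes summed to 45.6 FPKM at 4 months and 349 at 2 months, and in N101D to 122 FPKM at 4 months and 147 at 2 months. Vessel markers (19.8 FPKM in sum at 4 months and 20.2 at 2 months) and macrophage and leukocyte markers (12.6 FPKM at 4 months and 13.1 at 2 months) did not go with them. Cornea and conjunctiva markers had a median of 0.59 over 6 genes, led by Krt12, the corneal keratin, at 7.48 FPKM at 4 months and 2.23 at 2 months (1.39). In whole tissue a smaller share of cells of a type and less RNA per cell cannot be told apart, and the part of these tissues in the other results was not tested.

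**Figure D4:**
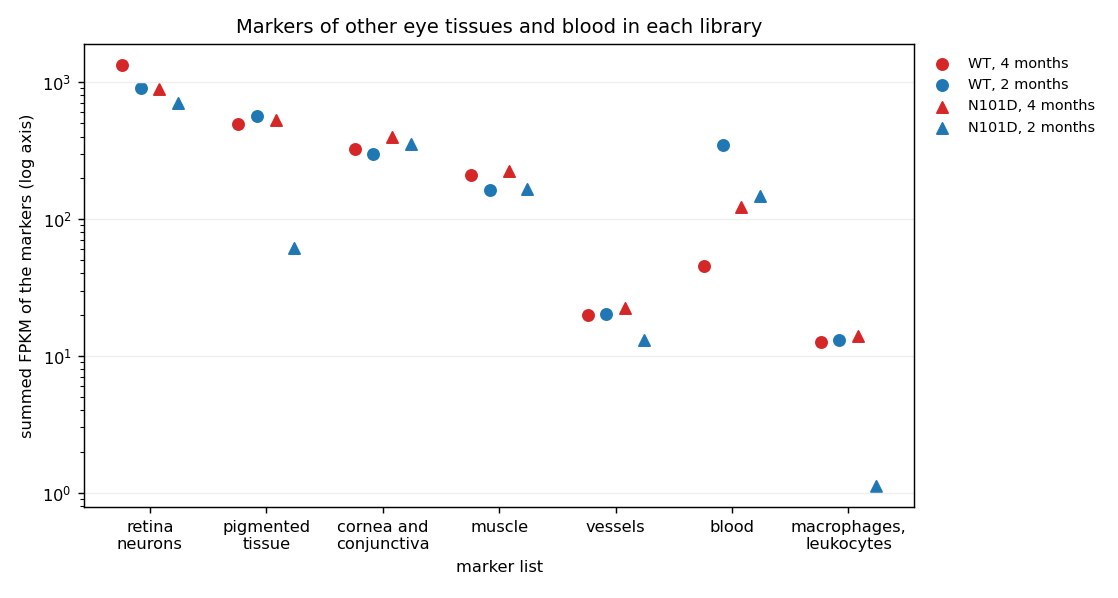
Summed FPKM (log axis) of markers of 7 other tissues and cell types in each of the 4 libraries, without loci of the third set. In WT the retina sum is higher and the blood sum lower at 4 months than at 2 months. The N101D library of 2 months is lowest for retina neurons, pigmented tissue, vessels, and macrophages and leukocytes.

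Matrix genes outside the capsule were mixed. Col1a1, the main chain of fibrillar collagen (chromosome 11, 94797583 to 94813810), stood at 0.586 FPKM at 4 months and 4.44 at 2 months (-1.78), and Col1a2 at 3.002 FPKM at 4 months and 8.63 at 2 months (-1.27). Mfap2, a microfibril protein, differed by -1.22 and Fbn1, fibrillin of the zonule, by -0.89. Timp1, an inhibitor of metalloproteinases, was higher at 6.19 FPKM at 4 months and 1.54 at 2 months (1.504). Over 22 genes the median was -0.17 and turned to 0.07 and 0.11 with equal totals, but -0.15 with stranded totals. In N101D the median was 1.02, with Col1a1 at 2.34, Col1a2 at 1.29 and Fbn1 at 3.13, while Mfap2 differed by -0.75 and Timp1 by -0.04. The N101D library of 2 months listed Col1a1 at 0.231 FPKM and Fbn1 at 0.248 FPKM. That library was low in markers of several other tissues, and its part in these N101D values was not tested. Interferon-induced genes were negative in 12 of 14 cases with a median of -0.28, which was -0.06 and -0.03 with equal totals, among them Ifitm3, a membrane protein that restricts viral entry, at 15.9 FPKM at 4 months and 25.5 at 2 months (-0.65). In N101D that list had a median of 0.66 with 10 of 14 positive, and Ifitm3 differed by 2.46, from 2.49 FPKM at 2 months in the same library. In signalling lists the Wnt receptor Fzd1 stood at 4.66 FPKM at 4 months and 10.4 at 2 months (-1.01), and Pdgfra, a growth factor receptor, differed by -0.91. Cgn, which encodes the tight junction protein cingulin, stood at 2.14 FPKM at 4 months and 8.71 at 2 months (-1.63), and differed by 1.10 in N101D.

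Protective and metabolic genes showed differences in single members rather than across lists. Prdx6, a peroxiredoxin that reduces lipid peroxides, stood at 157 FPKM at 4 months and 73.7 at 2 months (1.08), and in N101D it differed by 1.46. Txnrd1, thioredoxin reductase (0.93), and Sod1, the cytosolic superoxide dismutase (0.87), were higher as well, while Cat, catalase, differed by -0.42. The list of 23 had a median of -0.01. In the glutathione list Gsto1 (0.79) was higher, and Gpx3 (-0.79) and Gclc, the catalytic subunit for glutathione synthesis (-0.67), were lower. In N101D these 3 differed by 1.06, 5.71 and -0.76. Gpx3 stood at 3.07 FPKM in N101D at 2 months, against 239 FPKM in WT at that age. The unfolded protein response list had a median of 0.04 with 13 of 20 positive and none at 2-fold (1.41% over all genes). Ppp1r15a (0.94), Ddit3 (0.73), Atf5 (0.50) and Atf4 (0.49) had its largest positive values and Pdia6 (-0.39), Canx (-0.34) and Asns (-0.33) its most negative. Bax, a pore-forming apoptosis gene, stood at 59.9 FPKM at 4 months and 30.2 at 2 months (0.97).

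Oxidative phosphorylation genes had a median of 0.01 over 47, with Ndufa1 of complex I at 47.4 FPKM at 4 months and 102 at 2 months (-1.09) and Ndufb10 at 88.6 FPKM at 4 months and 48.5 at 2 months (0.86). Both kept these directions in N101D, at -1.67 and 0.98. Proteasome, ubiquitin, and autophagy and lysosome genes had medians of 0.07, 0.07 and 0.04 with no member at 2-fold (1.41% over all genes). Cholesterol synthesis genes had a median of -0.22, with Hmgcs1 at -0.68 and Sqle at -0.56, the glycolysis and sorbitol list stood at -0.08 and the FGF list at -0.02, and all 3 turned positive with equal totals and stayed negative with stranded totals. Immediate early genes had a median of 0.25, with Egr1 at 2.36 FPKM at 4 months and 0.830 at 2 months (0.87) and Junb at 0.82. Of 46 lists, 4 had a median above 0.3 and 5 a median below -0.3.

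**Figure D5:**
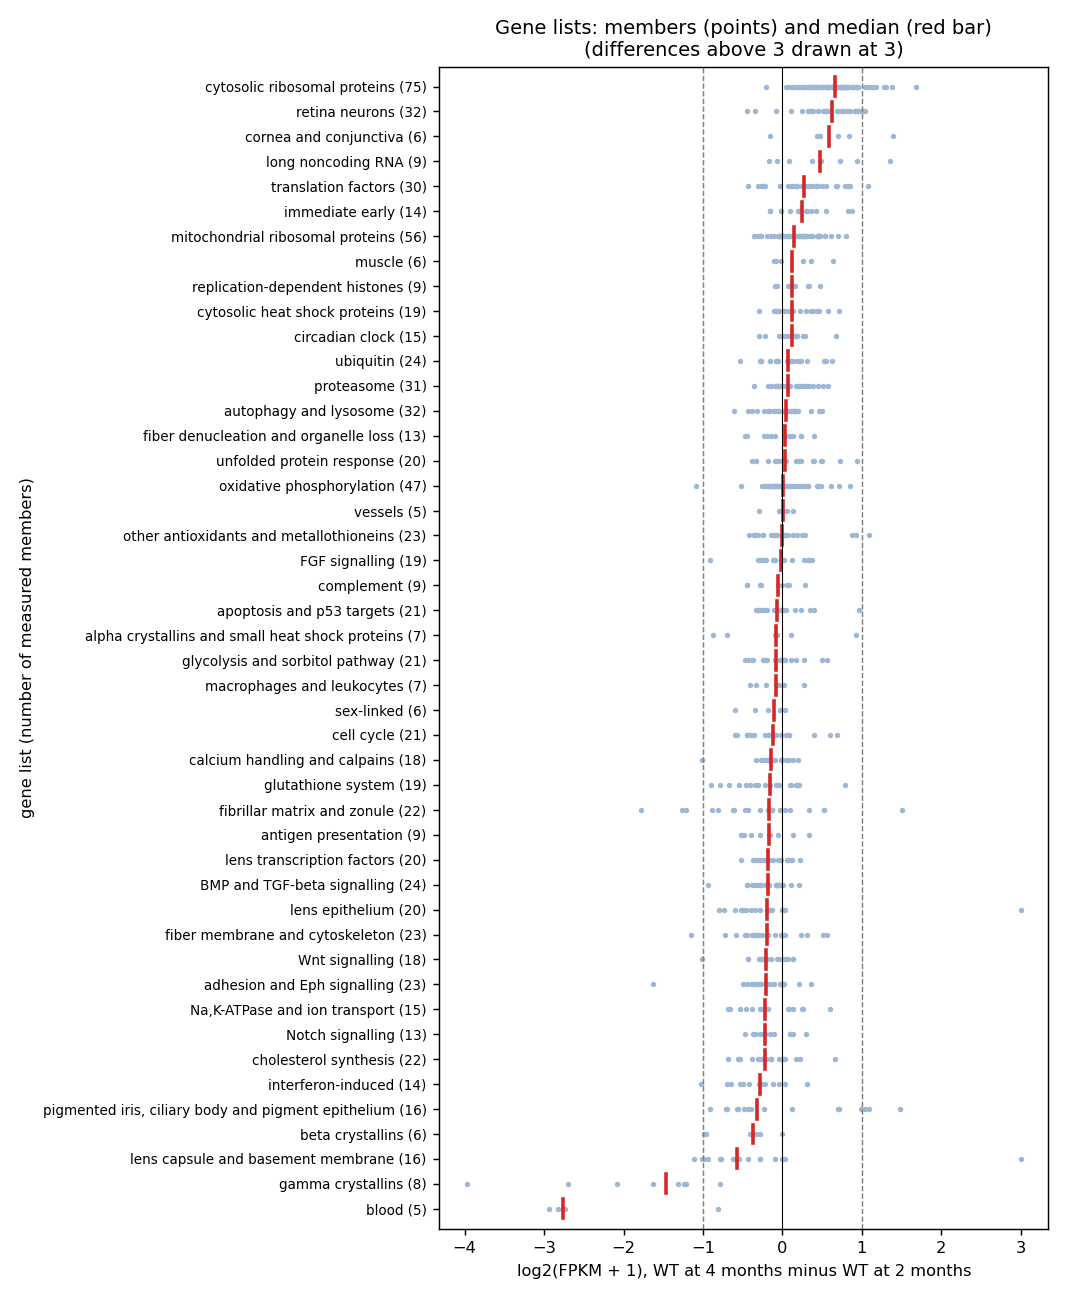
Differences between WT at 4 months and WT at 2 months (log2(FPKM + 1)) for the measured members of 46 gene lists (points) with the median of each list (red bar), ordered by median. Ribosomal proteins, retina neurons, cornea and long noncoding RNA stand at the top, and gamma crystallins and blood genes at the bottom.

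Among genes of at least 5 FPKM in the higher library, those with the largest differences include several of no list. Serpinb6b, a serine protease inhibitor gene (chromosome 13, 33057104 to 33070906), stood at 31.1 FPKM at 4 months and 5.09 at 2 months (2.40), and in N101D it differed by 1.36. Tinag, tubulointerstitial nephritis antigen of basement membranes (chromosome 9, 76799485 to 76893588), stood at 8.71 FPKM at 4 months and 1.29 at 2 months (2.09). Psca, a membrane-anchored surface antigen (chromosome 15, 74545247 to 74547495), stood at 7.04 FPKM at 4 months and 1.1999 at 2 months (1.87). Tinag and Psca were higher in N101D too, by 1.67 and 1.78. Ccdc101 differed by 1.85 in WT and -0.09 in N101D, and Sh3glb2 by 1.47 and 0.92. At 100 FPKM or more, 2410006H16Rik stood at 264 FPKM at 4 months and 103 at 2 months (1.35).

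On the lower side Pgam2, the muscle form of phosphoglycerate mutase (chromosome 11, 5701639 to 5703799), stood at 19.3 FPKM at 4 months and 114 at 2 months (-2.50), and differed by -2.24 in N101D. The locus 1600012H06Rik stood at 1.72 FPKM at 4 months and 7.78 at 2 months (-1.69). Other entries at the extremes rest on the third set of loci. Tspan5 had 71274 FPKM at 4 months and 0 at 2 months there, but 27.8 FPKM at 4 months and 27.4 at 2 months on its stranded locus. Zfp148 (-1.75) and Laptm4b (2.78) likewise differed by -0.13 and -0.16 on their stranded loci. In all, 29 of the 2-fold genes of the third set have a stranded locus, and 2 of these loci differed 2-fold in the same direction.

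Of the 89 genes at least 2-fold higher in WT at 4 months, 28 also reached 2-fold in N101D, 63 were positive there and 5 were 2-fold or more lower. Of the 68 lower genes, 38 also reached 2-fold in N101D, 56 were negative there and 5 were 2-fold or more higher. Over the same 11166 genes the N101D background was 590 genes (5.28%) higher and 134 (1.2%) lower, or 6.48% in either direction. The N101D median over these genes was 0.14, so most of them were positive there whatever their WT difference. The 38 shared lower genes include 7 gamma crystallins, Col4a1, Pgam2 and Ndufa1, but also loci of the third set. Among the latter, Zfp148, Ralyl and Pcsk2 differed by -0.13, 0.15 and 0.01 in WT on their stranded loci, and Vwa3a by -1.44. Also among the 38 is a group of loci of high FPKM that differed by similar amounts. The Lars2 locus stood at 524 FPKM at 4 months and 1226 at 2 months (-1.22). Mir715 (-1.29), Kpna1 (-1.15) and Filip1l (-1.14) were alike, and in N101D these 4 differed by -2.03 to -2.25. Whether the fragments at these loci come from transcripts of the named genes was not tested.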

How the data were processed

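Values are FPKM as the authors deposited them, 1 table per library, each with 44597 loci, a symbol, a position and a status. Per the submitters' processing notes the build was mm9 and the tools were Cuffdiff (no version given), Cufflinks 1.0.3, TopHat 1.2.0 and CASAVA 1, and no annotation is named in the sources used here. Per the labels' protocols, total RNA was isolated with Trizol and made into TruSeq libraries, which are not said to mark strand, so overlapping and antisense genes cannot be told apart. Status was equal between the libraries of each age for all 44597 loci and differed between ages for 2788, so levels across ages come from tables that look separately made. Loci marked FAIL (488 at 4 months, 289 at 2 months) and 15488 loci without a symbol were left out. Whether starts count from 0 or 1 was not given.

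Differences were taken as log2(FPKM + 1) with Python 3.11.15, pandas 2.3.3 and numpy 2.4.6, with no scaling and no test, since each group has 1 library. The difference, the filter and the calls were checked on simulated data. Depth was recovered from the steps between low FPKM values, with locus lengths shortened by 159 to 167 bases. In the WT libraries 94.1% of 2405 values (4 months) and 95.9% of 2009 values (2 months) came within 0.05 of a whole read. No counts were rebuilt, because most loci hold several transcripts.

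The genes named are the 15 highest and 15 lowest differences at 5 FPKM or more, the 10 of each at 100 FPKM or more, up to 5 of each list, and every crystallin and sex-linked gene; others were named after their values were seen. The members and the 46 lists were chosen with earlier results of these data known. Alternatives covered the pseudocount, the filter, 4 scalings, summed loci and loci of status OK. After the data were seen, 2 were added, leaving out the third set of loci alone or from the totals, and differences were also set against transcript length. Some genes that the rule names are not reported here.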

Additional observations from a re-analysis of the deposited data

Results flagged for a closer look

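Among the genes that the naming rule picks, 6 differed at least 2-fold between 4 and 2 months in both lines but in opposite directions in WT and N101D, of 10 such genes in all. With 1 library per group the difference between the lines was not tested. The N101D side rests on a library of 2 months that was low in markers of several other tissues. Cgn differed by -1.63 in WT and 1.10 in N101D. Col1a1 differed by -1.78 in WT and 2.34 in N101D, and Col1a2 by -1.27 and 1.29. Among the lists, 1 had medians beyond 0.3 in opposite directions. The pigmented iris, ciliary body and pigment epithelium list had a median of -0.31 in WT and 2.28 in N101D, where the library of 2 months was low in these markers. Another 3 genes rest on the third set of loci. Tspan5 differed by 16.12 in WT and -2.52 in N101D, Catsperb by 1.96 and -1.08, and Ptger3 by 1.16 and -2.78.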

How the results depend on the processing

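The 89 higher and 68 lower genes became 213 and 152 with a pseudocount of 0.1, and 19 and 33 with a pseudocount of 10. Equal totals of all usable loci gave 320 and 29, a median of all genes of 0.28 and a crystallin log2 ratio of -0.42. Equal totals without crystallins gave 390 and 28, 0.32 and -0.37. Totals without crystallins and the third set gave 96 and 61, 0.01 and -0.75. Quantile normalization moved the crystallin ratio to -0.32, and with loci of status OK only (6011 genes, fewer tested) 45 genes were higher. The cause was not tested otherwise. Set relative to the median of all genes, 2 of 552 list values changed sign, both with status OK only, at 0.0086 for Notch signalling and 0.0813 for cell cycle. Not set relative to it, 23 of 46 list medians changed sign with equal totals and 24 with equal totals without crystallins. For named genes this check covered 47, of which 45 differed by more than 0.3, and left out the other genes named. Of their 541 values 4 changed sign: Col4a3 at -0.58 and Laptm4b at -0.15 without the third set, and Cryaa and Cryba2, both at 0.0187, with quantile normalization. Leaving out a library was not possible with 1 per group. No paired analysis was possible because the groups hold 1 library each and the labels give no replicate numbers. Depth limits genes near 1 FPKM, where 24 of the higher and 13 of the lower genes lie under 5 FPKM.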
